A study of Mus musculus with 12 samples.

Results

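The Zic genes encode zinc finger transcription factors that bind DNA and regulate genes of the developing nervous system. Zic1, Zic2, Zic4 and Zic5 were taken from the deposited table by their symbols, which gave 4 of the 24419 genes listed, and all 4 passed the filter on low values that left 15462 genes for testing. Their RNA was measured in cells expressing green fluorescent protein (GFP), sorted from the cerebellum of Aldh1l1-GFP mice at postnatal day 1 (P1), P7, P14 and P28, with 3 libraries at each of the 4 time points. All 12 libraries therefore share the reporter, in which the promoter of Aldh1l1, an astrocyte enzyme of folate metabolism, drives GFP, and the study's methods give a C57/BL6J background with males and females both used. Sorting on this reporter selects cells by GFP alone, so any cell of the tissue that carried enough of the protein could enter the gate. Between 6399499 and 14733985 reads per library fell on genes. The labels do not say whether the libraries of a time point came from separate animals, so the p-values measure the spread between libraries, which may be technical.

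Zic proteins are relatives of the Gli factors, which carry the transcriptional response to Hedgehog signalling, and both families recognise DNA through tandem C2H2 zinc fingers. In the vertebrate nervous system Zic genes are known from the dorsal neural tube and from the cerebellum, where the granule neuron lineage expresses them from its precursors onward. Loss of Zic1 in the mouse gives a small, abnormally folded cerebellum, and deletions that take in ZIC1 and ZIC4 are linked in humans to Dandy-Walker malformation. The comparison over time addressed how the RNA of these genes behaved in the sorted cells while the cerebellar layers formed.

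The 4 genes lie in 2 pairs of neighbours on opposite strands. Zic5 and Zic2 are read away from each other. So are Zic1 and Zic4 from the Zic4 start in the RefSeq promoter table, but their GENCODE spans overlap by 3398 bases. In GENCODE M21 on the mouse build GRCm38 (mm10), Zic1 spans chr9:91358058-91365810 on the minus strand and Zic4 spans chr9:91362413-91389348 on the plus strand. Zic5 spans chr14:122456795-122465677 on the minus strand and Zic2 spans chr14:122475435-122479852 on the plus strand. Between their starts lay 3204 bases for Zic1 and the Zic4 start in the RefSeq promoter table, and 9726 bases for the RefSeq starts of Zic5 and Zic2. These distances are not like measures, because the RefSeq gene spans of Zic1 and Zic4 overlap by 138 bases and those of Zic5 and Zic2 by 0. The exons of Zic1 and Zic4 shared 60 bases on opposite strands, which is 1.05% of the exon bases of Zic1 and 0.581% of those of Zic4, while the exons of Zic5 and Zic2 shared 0. Whether the authors' counting used strand is not given in the sources used here, so reads from those 60 bases cannot be assigned with certainty to Zic1 or Zic4.

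**Figure D1:**
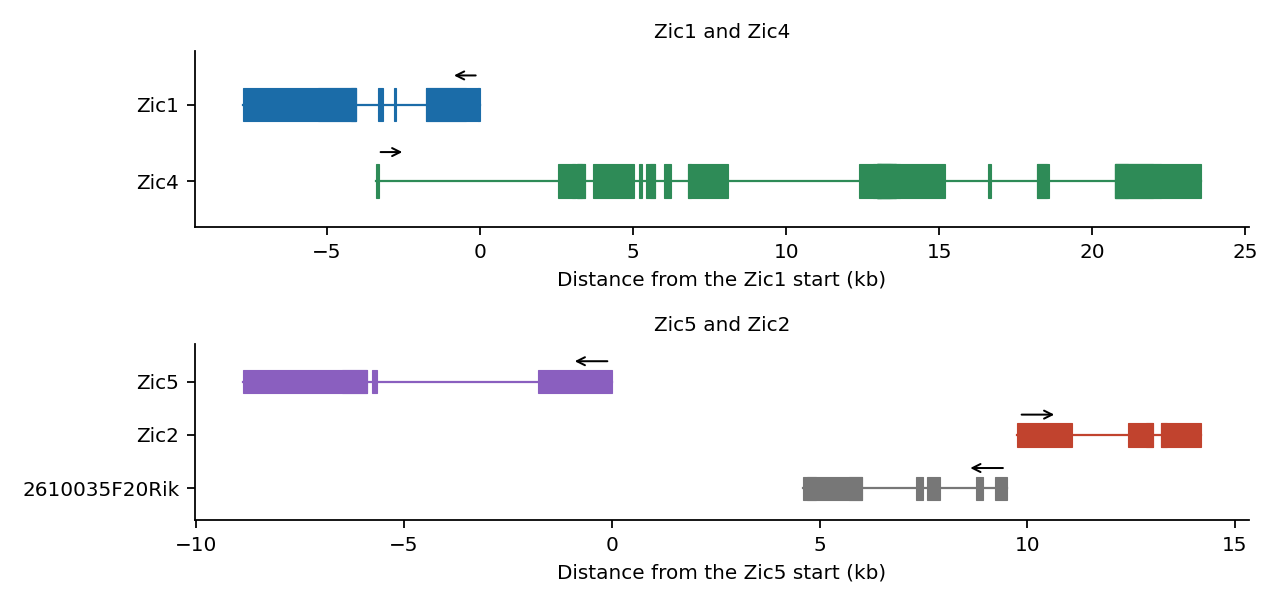
Exons (blocks) and introns (lines) of the Zic genes at their 2 loci in GENCODE M21, drawn to scale, with arrows giving the direction of transcription and the horizontal axis giving kilobases from the Zic1 start (top) or the Zic5 start (bottom). The spans of Zic1 and Zic4 overlap by 3398 bases, of which 60 are exon bases of both, whereas Zic5 and Zic2 are separated and a noncoding transcript, 2610035F20Rik, lies between them.

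The coding sequences of the family are alike, and this bears on whether short reads could be counted for the wrong member. Over aligned bases of the coding sequence, identity was 78.6% between Zic1 and Zic2, 75.6% between Zic1 and Zic4, 72.3% between Zic1 and Zic5, 77.2% between Zic2 and Zic4, 71.8% between Zic2 and Zic5 and 76.9% between Zic4 and Zic5. The longest identical run of the 6 pairs was 42 bases, in Zic1 and Zic4. It is printed with the run of 35 bases shared by Zic1 and Zic2, from the GENCODE M21 coding sequences, 5′ to 3′, with the identical run in capitals and 12 flanking bases on each side in lower case.
Zic1 beside Zic4: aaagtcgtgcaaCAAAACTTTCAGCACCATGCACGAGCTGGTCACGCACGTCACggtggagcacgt
Zic4 beside Zic1: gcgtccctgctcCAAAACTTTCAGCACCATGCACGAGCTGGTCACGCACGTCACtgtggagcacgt
Zic1 beside Zic2: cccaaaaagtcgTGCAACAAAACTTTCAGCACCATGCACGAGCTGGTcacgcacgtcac
Zic2 beside Zic1: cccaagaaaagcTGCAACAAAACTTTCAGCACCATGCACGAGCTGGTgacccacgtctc
No stretch of 75 bases, a read length given in the study's methods, was identical between transcripts of any 2 of the 4 members on either strand (0 of 5649 windows in Zic1, 0 of 2802 in Zic2, 0 of 10386 in Zic4 and 0 of 4815 in Zic5). A read with mismatches, or one cut short, was not considered.

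RefSeq promoter windows on GRCm38.p6, from 250 bases before a start to 50 bases after it, were on hand for 3 of the 4 members, Zic1, Zic4 and Zic5. The bases of the window before the annotated exons are printed for Zic1 (chr9:91365811-91366018, minus strand, 208 bases) and Zic5 (chr14:122465678-122465908, minus strand, 231 bases). The Zic5 stretch lies between Zic5 and Zic2, while the Zic1 stretch lies within the GENCODE span of Zic4, outside its exons. Capitals mark CG pairs, the sites of DNA methylation in mammals.
Zic1: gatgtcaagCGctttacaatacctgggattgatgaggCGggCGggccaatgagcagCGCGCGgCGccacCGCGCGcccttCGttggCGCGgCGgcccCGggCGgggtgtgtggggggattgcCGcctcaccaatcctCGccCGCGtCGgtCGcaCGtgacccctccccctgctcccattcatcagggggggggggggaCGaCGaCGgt
Zic5: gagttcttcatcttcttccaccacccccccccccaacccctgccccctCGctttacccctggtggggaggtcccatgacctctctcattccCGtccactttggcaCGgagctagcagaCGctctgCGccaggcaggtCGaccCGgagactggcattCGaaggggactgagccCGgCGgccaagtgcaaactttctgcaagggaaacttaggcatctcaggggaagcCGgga
The Zic1 stretch held 26 CG pairs and the Zic5 stretch held 11. Over the whole window, the ratio of observed to expected CG pairs was 0.969 for Zic1, at the 92.3 percentile of 32851 windows, against 0.546 for Zic4 and 0.510 for Zic5. The Zic sites GGGTGGTC, which is contained in the longer Gli site, and CAGCAGG were searched on both strands and were found 0 times in the 3 windows, while 0.807% and 10.5% of all windows held them.

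Zic1 was the most abundant member throughout, and it rose sharply between P1 and P7. Zic1, the member best known from cerebellar granule neuron precursors, had normalized counts of 2945, 1828 and 3540 in P1 replicates 1 to 3, and 7535, 5586 and 7275 at P7. The counts were 4107, 5056 and 5570 at P14, and 5355, 5716 and 5306 at P28. All 9 libraries from P7 onward lay above all 3 libraries from P1, and the P28 libraries were the closest to each other. As means ± SD (n = 3), Zic1 had 2771 ± 869.0 (P1), 6798 ± 1058 (P7), 4911 ± 742.2 (P14) and 5459 ± 223.7 (P28) normalized counts.

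Zic2, a factor needed for forebrain midline development and for axons that do not cross at the optic chiasm, had its highest values at P7 and fell back later. Its normalized counts were 391.3, 265.8 and 419.5 at P1, and 762.8, 778.7 and 893.0 at P7. At P14 they were 460.7, 503.5 and 793.8, and at P28 they were 342.0, 476.5 and 600.4. The 3 libraries from P7 lay above all from P1 and from P28, P14 replicate 3 lay within the P7 range, and the P28 libraries overlapped those from P1. The means ± SD (n = 3) in normalized counts were 358.9 ± 81.83 (P1), 811.5 ± 71.01 (P7), 586.0 ± 181.2 (P14) and 473.0 ± 129.3 (P28).

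Zic4, the neighbour of Zic1 on the opposite strand, had its highest values at P28. Its normalized counts were 1148, 430.1 and 1176 at P1, 1440, 1188 and 1514 at P7, and 1177, 1377 and 1183 at P14. They were 2001, 2385 and 3140 at P28. The P28 libraries lay above the other 9, and P1 replicate 2 lay far below its 2 fellows. Mean normalized counts ± SD (n = 3) were 918.0 ± 422.8 for P1, 1381 ± 170.7 for P7, 1246 ± 114.2 for P14 and 2509 ± 579.7 for P28.

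Zic5, the divergently transcribed neighbour of Zic2, had the fewest normalized counts. The P1 libraries held 148.3, 150.0 and 199.2, and those of P7 held 367.1, 225.1 and 290.7. The P14 libraries held 181.1, 214.7 and 221.5, and those of P28 held 372.7, 211.1 and 421.9. All libraries from P7 and P28 lay above those from P1, but P28 replicate 2 lay within the P14 range. Mean normalized counts ± SD (n = 3) came to 165.8 ± 28.88 for P1, 294.3 ± 71.04 for P7, 205.8 ± 21.66 for P14 and 335.2 ± 110.3 for P28.

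**Figure D2:**
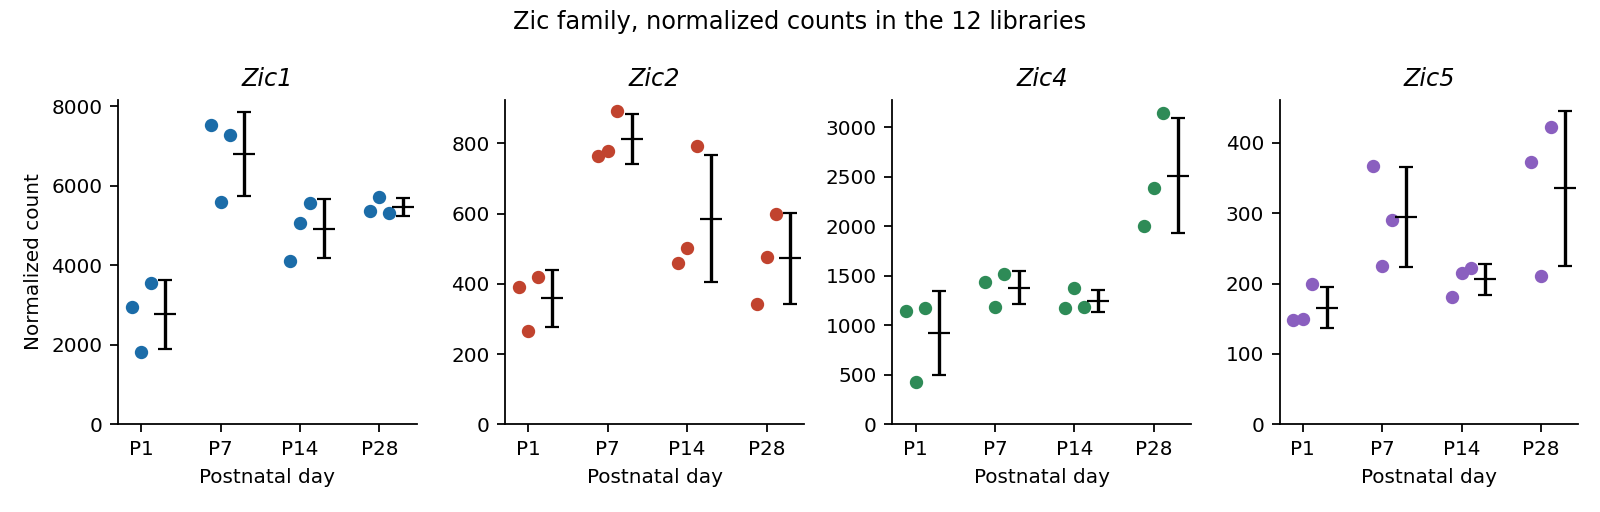
Normalized counts of Zic1, Zic2, Zic4 and Zic5 (vertical axes, each from 0) by postnatal day, with 1 point per library and the mean ± SD of 3 libraries beside the points. With the deposited scaling shown, Zic1 and Zic2 are highest at P7, with means of 6798 and 811.5. On that scale Zic4 and Zic5 are highest at P28, with means of 2509 and 335.2.

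Between P1 and P7, 2 of the 4 members rose, Zic1 and Zic2. Zic1 rose by 1.33 ± 0.21 (log2 fold change on the log2(value + 1) scale ± SE, a fold of 2.52, limma adjusted p = 0.00156). Zic2 rose by 1.20 ± 0.28 (fold 2.30, adjusted p = 0.0158). Zic4 had 0.72 ± 0.31 (adjusted p = 0.211) and Zic5 had 0.81 ± 0.33 (adjusted p = 0.176), and neither passed. Over all genes tested, 7.7% were called at an adjusted p under 0.05 in this comparison and 3.47% were called higher. The median log2 fold change was 1.00 over the 4 members and 0.04 over all genes. For 4 of 4 members the lowest P7 library lay above the highest P1 library, which held in this direction for 20.1% of all genes. The margin was narrow for Zic4, with 1188 against 1176 normalized counts. The call of Zic1 was kept in 22 of 22 alternative fits and that of Zic2 in 19 of 22. The call of Zic2 ended without P1 replicate 2 (adjusted p = 0.0809), without P7 replicate 2 (0.0528) and without P7 replicate 3 (0.0777).

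From P7 to P14, 0 of the 4 members passed the test in limma, in edgeR or in DESeq2, at a step where 20.9% of all genes were called. Zic1 had a log2 fold change of -0.47 ± 0.21 (adjusted p = 0.147), Zic2 of -0.51 ± 0.28 (adjusted p = 0.233), Zic4 of -0.14 ± 0.31 (adjusted p = 0.806) and Zic5 of -0.49 ± 0.33 (adjusted p = 0.342). At an unadjusted p under 0.05 limma had 1 member, Zic1. All 4 estimates were below 0, with a median of -0.48 against -0.09 for all genes. The 95% intervals reached from -0.93 to -0.01 for Zic1 and from -0.81 to 0.52 for Zic4, so decreases of up to those sizes lie within the intervals that 3 libraries per time point allow. With library totals as the scale, Zic1 passed (log2 fold change -0.73, adjusted p = 0.0244).

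From P14 to P28, Zic4 was the 1 member that passed, and it did so narrowly. Zic4 rose by 0.99 ± 0.31 on the log2 scale (fold 1.98, adjusted p = 0.0468), in a comparison where 14.4% of all genes were called and 5.68% were called higher. Its 3 libraries from P28 lay above its 3 from P14, as did those of 11.7% of all genes. The call held in 10 of 22 alternative fits. It ended with TMM scaling (adjusted p = 0.0504), with library totals (0.112), with a pseudocount of 0.1 (0.0527) and with no filter on low values (0.0662), and leaving out 1 library gave adjusted p-values from 0.00460 to 0.128. Of the libraries left out in turn, each of the 3 from P7, the 3 from P14 and P28 replicates 2 and 3 ended it, while the log2 fold change stayed between 0.81 and 1.14. Zic1 had 0.16 ± 0.21 (adjusted p = 0.651), Zic2 had -0.30 ± 0.28 (adjusted p = 0.497) and Zic5 had 0.65 ± 0.33 (adjusted p = 0.204). The Zic5 value passed only without P28 replicate 2 (0.95, adjusted p = 0.0486).

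Across the whole interval from P1 to P28, 3 of the 4 members rose, where 34.6% of all genes were called and 14.6% were called higher. Zic4 rose by 1.56 ± 0.31 (fold 2.95, adjusted p = 0.00151), Zic1 by 1.03 ± 0.21 (fold 2.04, adjusted p = 0.00202) and Zic5 by 0.96 ± 0.33 (fold 1.95, adjusted p = 0.0349) on the log2 scale. Zic2 had 0.39 ± 0.28 (adjusted p = 0.299, 95% interval -0.21 to 0.98), an interval that holds no change as well as a rise nearly as large as that of Zic1. The calls of Zic1 and Zic4 were kept in 22 of 22 alternative fits and that of Zic5 in 15 of 22. The call of Zic5 ended with library totals (log2 fold change 0.53, adjusted p = 0.208), with the 2 time points fitted alone (adjusted p = 0.114) and without P1 replicate 1 (0.104), P1 replicate 2 (0.0899), P7 replicate 3 (0.0537), P28 replicate 1 (0.0755) or P28 replicate 3 (0.0945).

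**Figure D3:**
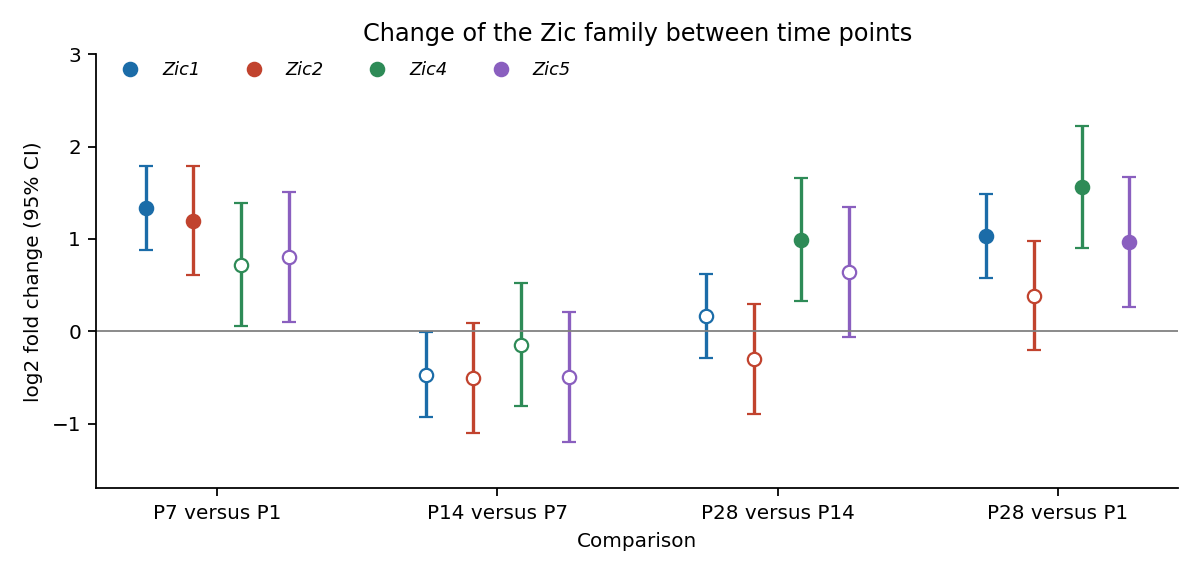
log2 fold changes of the 4 Zic genes with 95% intervals (vertical axis, log2(value + 1) scale) in 4 comparisons of time points (horizontal axis), with filled points for an adjusted p under 0.05 in limma and open points otherwise. Zic1 and Zic2 are filled from P1 to P7, Zic4 from P14 to P28, and Zic1, Zic4 and Zic5 from P1 to P28.

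The order of the 4 time points differed between members. Zic1 ran from P7 through P28 and P14 down to P1, and of these neighbours only P14 and P1 differed beyond the spread (log2 fold change 0.87 ± 0.21, adjusted p = 0.00993, with 20.4% of all genes called and 10.4% called higher). Zic2 ran from P7 through P14 and P28 down to P1, and no 2 neighbours in that order passed the test in limma. Zic4 ran from P28 through P7 and P14 down to P1, and P28 lay above P7 (0.84 ± 0.31, adjusted p = 0.0439, with 39.2% of all genes called and 16.2% called higher). Zic5 had the order of Zic4, with no neighbours that differed beyond the spread. These orders are those of the deposited scaling. With library totals the sign turned for Zic1 in P28 versus P14 (-0.074), Zic2 in P28 versus P1 (-0.047) and Zic5 in P28 versus P7 (-0.34). Zic2 was lower at P28 than at P7 (-0.81 ± 0.28, adjusted p = 0.0318, with 22.9% of all genes called lower) while Zic4 was higher, so of the 4 members 1 was called in each direction between these ages. With library totals, Zic1 was called lower as well (log2 fold change -0.80, adjusted p = 0.00776) and Zic4 lost its call. The Zic2 call was kept in 18 of 22 alternative fits and ended without P7 replicate 1, 2 or 3 or P28 replicate 1 (adjusted p up to 0.108). The Zic4 call between P28 and P7 was kept in 12 of 22. It ended with library totals (log2 fold change 0.35, adjusted p = 0.369), with no filter on low values (adjusted p = 0.0570) and without any 1 of the P7 libraries, any 1 of the P14 libraries, or P28 replicate 2 or 3 (adjusted p up to 0.134).

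Scaling by library totals in place of the deposited size factors shifted the median change over all genes by more than 0.1 (log2) in each comparison except P7 versus P1, for example from -0.24 to -0.66 for P28 versus P1. Relative to that median, Zic1 stood at 1.27 with the deposited scaling and 1.25 with library totals for P28 versus P1, Zic2 at 0.62 and 0.61, Zic4 at 1.80 and 1.79, and Zic5 at 1.20 and 1.19. For P28 versus P7, relative to the median, Zic2 stood at -0.53 and -0.54 and Zic4 at 1.13 and 1.11. In a comparison of levels without that correction, Zic2 for P28 versus P1 changed sign with library totals (-0.047).

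A ratio between 2 members within a library does not depend on the scaling of that library, so the proportions of the family were compared directly. The count of Zic4 as a percent of Zic1 was 39.0, 23.5 and 33.2 in the 3 libraries at P1, and 19.1, 21.3 and 20.8 at P7. It was 28.6, 27.2 and 21.2 at P14, and 37.4, 41.7 and 59.2 at P28. This ratio was lowest at P7 and highest at P28, and P28 overlapped P1 but neither P7 nor P14. The log2 ratio of Zic4 to Zic1 differed over time (F = 8.97, exact permutation test over 15400 assignments of the libraries, p = 0.00545, adjusted over 6 pairs p = 0.0173). The log2 ratio of Zic4 to Zic2 also differed (F = 12.4, exact permutation p = 0.00578, adjusted p = 0.0173), with means of 1.24 (P1), 0.76 (P7), 1.13 (P14) and 2.42 (P28). These 2 of 6 pairs passed, and both lost the call without P7 replicate 1 (adjusted p = 0.0563 and 0.0503) and without P28 replicate 3 (0.0535 for each). The smallest p these permutations can give is 6.49e-05.

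Within the chromosome 14 pair, the log2 ratio of Zic5 to Zic2 had means of -1.09 (P1), -1.48 (P7), -1.47 (P14) and -0.52 (P28), and did not pass (exact permutation adjusted p = 0.129). The P28 libraries were far apart, with Zic5 at 109.0%, 44.3% and 70.3% of Zic2. Zic2 to Zic1 (exact permutation adjusted p = 0.129), Zic5 to Zic1 (0.224) and Zic4 to Zic5 (0.372) did not pass either. Without P28 replicate 2, Zic5 to Zic2 (exact permutation adjusted p = 0.0256) and Zic5 to Zic1 (0.0358) passed as well, so 4 of 6 pairs did.

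**Figure D4:**
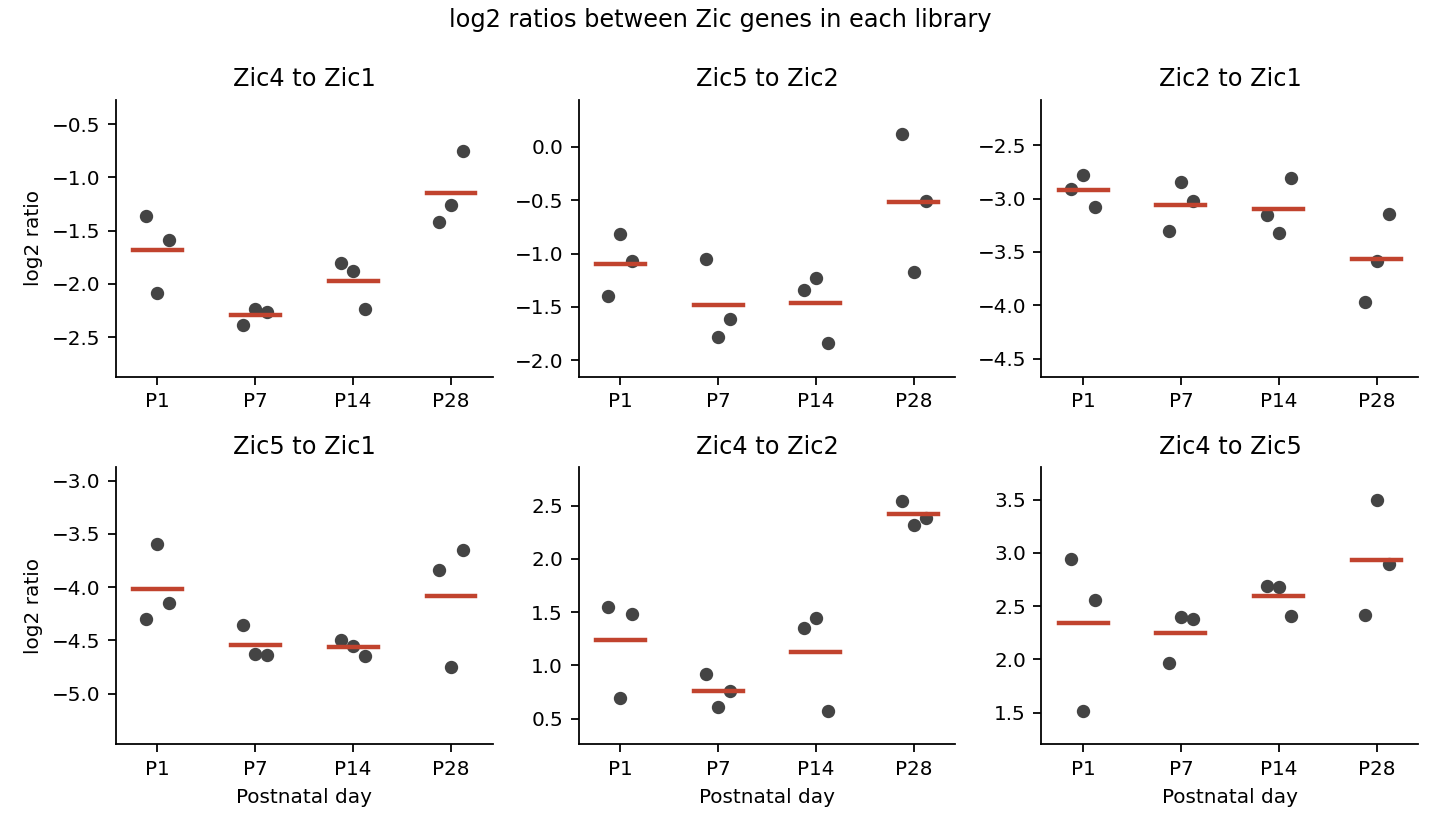
log2 ratio of the normalized counts (each plus 1) of 2 Zic genes (vertical axes) in each library by postnatal day, with 1 point per library and a line at the mean of 3. Zic4 to Zic1 and Zic4 to Zic2 are lowest at P7, with means of -2.29 and 0.76, and highest at P28, with means of -1.15 and 2.42.

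To compare levels between genes, values were divided by exon length and scaled so that each library summed to 1000000. On this length-scaled level Zic1 had 264.3 ± 97.09 (P1), 653.4 ± 91.36 (P7), 389.9 ± 61.59 (P14) and 356.1 ± 19.07 (P28) (mean ± SD, n = 3), a mean percentile of 96.9 to 99.2 among 19326 detected genes with a length. Zic2 ranged from 60.5 at P28 to 154.3 at P7, Zic4 from 48.4 at P1 to 89.6 at P28, and Zic5 from 18.3 at P1 to 32.9 at P7 in mean length-scaled level. Of the summed length-scaled level of the 4 members, Zic1 held 66.2%, 71.4%, 70.2% and 67.1% in the order of age. Zic4 held 11.6%, 8.01%, 9.96% and 16.8%, and Zic2 held 17.3%, 17.04%, 16.4% and 11.3%. With the length of the longest coding transcript instead, Zic4 held 24.9%, 18.1%, 21.9% and 34.0%. Its share therefore depends on the length chosen, while P7 had the lowest and P28 the highest mean share with both lengths.

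In these bulk libraries, fewer cells of a type and less RNA per cell cannot be told apart, so markers of the cell types that the gate could hold were read beside the Zic genes. The 16 astrocyte and Bergmann glia markers, each with reads at every time point, summed to mean normalized counts of 99510 (P1), 58590 (P7), 214900 (P14) and 472900 (P28). Of them, 4 rose and 7 fell from P1 to P7, when Zic1 and Zic2 rose. Between P7 and P14, 13 rose and 1 fell, while no Zic gene passed the test. Between P14 and P28, 12 rose and 1 fell, when Zic4 rose. The calls over all genes came to 7.7%, 20.9% and 14.4% in the same order. Between P1 and P7 Aldh1l1 itself fell (log2 fold change -1.80 ± 0.25, adjusted p = 0.000465). Aqp4, the water channel of astrocyte endfeet, rose from P14 to P28 (1.35 ± 0.23, adjusted p = 0.00247).

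Markers of the granule neuron lineage were present too and moved with the Zic genes at some ages and apart from them at others. The 12 granule neuron markers summed to normalized counts of 1629 to 2384 (P1), 6133 to 8943 (P7), 15910 to 30730 (P14) and 9471 to 12690 (P28), with Gabra6, a receptor subunit of mature granule neurons, at 0 in all 3 P1 libraries. From P1 to P7, 7 of the 12 rose and 1 fell, where 7.7% of all genes were called. From P7 to P14, 9 rose and 0 fell while no Zic gene passed the test (20.9% of all genes called). From P14 to P28, 0 rose and 3 fell while Zic4 rose (14.4% of all genes called). Neurod1, a differentiation factor of these neurons, rose by 4.98 ± 0.47 (log2) between P1 and P7 (adjusted p = 3.25e-05) and fell by 1.74 ± 0.47 between P14 and P28 (adjusted p = 0.0237). The 8 precursor markers summed to normalized counts of 4538 to 5469 (P1), 4501 to 5869 (P7), 2131 to 2568 (P14) and 1368 to 2845 (P28). Of these, 1 rose from P1 to P7, 3 fell from P7 to P14 and 2 fell from P14 to P28. Over all genes, 7.7%, 20.9% and 14.4% were called at these steps. From P1 to P7 the 8 moved in both directions. Log2 fold changes were 2.48 for Atoh1, 2.19 for Barhl1, 1.65 for Mycn and 1.63 for Pax6, the 1 that was called. They were -0.68 for Boc, -0.71 for Hey1, -1.05 for Cxcr4 and -0.31 for Sfrp1, which had the largest mean of the 8 at P1 (2311). Atoh1, which defines the precursors, had normalized counts of 16.0, 0 and 15.9 at P1 and 30.3 to 45.0 at P7. It had 0 reads in all 6 libraries from P14 and P28, which allows up to 3 reads in each. The other precursor markers had P14 means of 602.8 (Pax6), 537.7 (Hey1), 482.8 (Boc), 381.5 (Sfrp1), 282.7 (Cxcr4), 54.9 (Barhl1) and 46.7 (Mycn). The 8 proliferation markers fell from a mean sum of 22440 at P7 to 1633 at P14, with 8 of 8 called lower, where 20.9% of all genes were called. The part of these cell types in the Zic values was not tested.

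**Figure D5:**
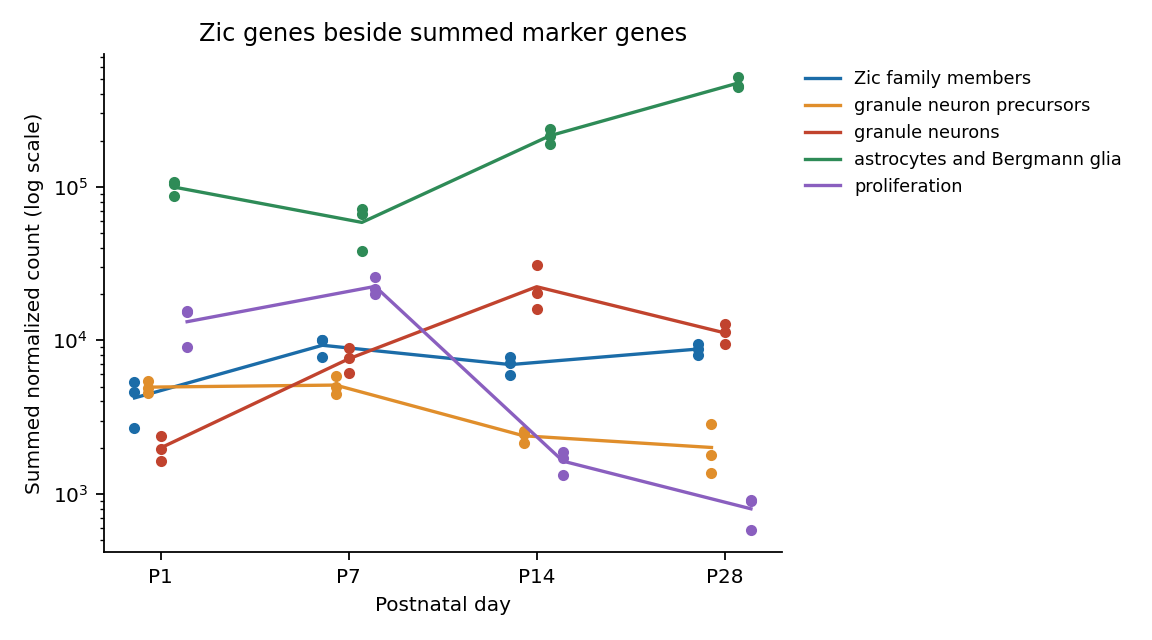
Summed normalized counts (vertical axis, log scale) of the 4 Zic genes and of 4 marker lists by postnatal day, with points for libraries and lines through the means of 3. The Zic sum, most of it Zic1, is lowest at P1 with a mean of 4214 and highest at P7 with a mean of 9285. Granule neuron markers peak at P14 with a mean of 22330 and astrocyte markers reach 472900 at P28.

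P1 replicate 2 had the lowest value of Zic1, Zic2 and Zic4 of all 12 libraries, and it also had the highest sum of the 8 meninges and fibroblast markers. That sum was 35220 normalized counts there against 19370 and 8386 in the other P1 libraries, and the means for P7, P14 and P28 were 15070, 10120 and 4982. Of the 8 markers, 2 fell from P14 to P28, where 14.4% of all genes were called. P1 replicate 2 also had the lowest granule neuron sum of the 12 libraries (1629). Its proliferation sum was the lowest at P1 (9026 against 15420 and 15210). Among the P1 libraries its sums were the highest for choroid plexus (2514), for microglia and endothelium (2162) and for the oligodendrocyte lineage (11180). They were the lowest for GABAergic neurons and Purkinje cells (840.2) and for unipolar brush cells (147.9). Its precursor and astrocyte sums lay between those of the other P1 libraries, but members of both lists went in opposite directions there. Among precursor markers, Pax6 had 161.5 against 546.9 and 579.3 in P1 replicates 1 and 3, and Sfrp1 had 3071 against 2226 and 1635. Among astrocyte and Bergmann glia markers, Gdf10 had 296.5 against 1341 and 1536, and Slc6a11 had 21040 against 18830 and 13280. Meningeal cells are known to express Zic genes, and the part of these or other cells in the values was not tested. Without P1 replicate 2, Zic2 for P7 versus P1 and Zic5 for P28 versus P1 lost their calls, and the log2 fold change of Zic4 for P7 versus P1 went from 0.72 to 0.24. Zic1 still rose from P1 to P7 and from P1 to P28, as did Zic4 from P1 to P28, with adjusted p-values of at most 0.0101 over all libraries left out in turn.

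Relatives of the family by zinc finger, the Gli and Glis genes, were followed for comparison. Of the 6 relatives tested (Gli1, Gli2, Gli3, Glis1, Glis2 and Glis3), 0 rose and 1 fell from P1 to P7, 1 rose and 1 fell from P7 to P14, and 2 rose and 0 fell from P14 to P28, beside 7.7%, 20.9% and 14.4% of all genes called at these steps. Gli1, a transcriptional target of Hedgehog signalling, rose from P7 to P14 (1.81 ± 0.40, adjusted p = 0.00478), and Gli2 (0.90 ± 0.23, adjusted p = 0.0193) and Gli3 (0.98 ± 0.30, adjusted p = 0.0442) rose from P14 to P28. Glis3 fell by 1.90 ± 0.38 (log2) between P1 and P7 (adjusted p = 0.00575), the step at which Zic1 and Zic2 rose.

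A further list held genes that encode partners of Zic proteins, or that Zic proteins are reported to regulate. Of 15 listed genes 13 were tested, and 0 rose and 2 fell from P1 to P7, 1 rose and 4 fell from P7 to P14, and 1 rose and 1 fell from P14 to P28. Of all genes, 7.7%, 20.9% and 14.4% were called at these steps, so nothing particular to the list is read from its counts. Apoe, a lipid carrier of astrocytes, fell by 1.36 ± 0.25 (log2) between P1 and P7 (adjusted p = 0.00339), then rose by 1.97 ± 0.25 to P14 (adjusted p = 5.84e-05) and by 0.86 ± 0.25 to P28 (adjusted p = 0.0321). Tcf7l2, a transcription factor of Wnt signalling, fell by 1.27 ± 0.26 between P1 and P7 (adjusted p = 0.00652). Dhx9, an RNA helicase, fell by 1.32 ± 0.22 between P7 and P14 (adjusted p = 0.000566). Chd4, a chromatin remodeler, had mean normalized counts between 3066 at P14 and 4425 at P7 and was not called in any comparison.

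For each member the genes with the most similar course over the 12 libraries were found by the root mean square difference of log2(value + 1), each gene centred on its own mean, over 15461 other genes. The 5 closest to Zic1 were Gramd1b (0.198 on the log2 scale), Tulp4, Dpf3, Scn8a and Zfp521 (0.266), against a median of 0.966 for all genes, and Zic2 came at rank 24. Zfp521 was also the closest to Zic2 (0.211), followed by Soga1, Calm2, Cox20 and Mat2b, with Zic1 at rank 43. The closest to Zic5 were Lrrfip2 (0.231), Ptpn4, Klhl24, 1810030O07Rik and 2610008E11Rik, with its locus neighbour Zic2 only at rank 1663. The likeness of single genes over 12 libraries is a description, and the points share their libraries and depth.

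The gene closest to Zic4 lay at the other Zic locus. It was Gm5089 (root mean square difference 0.201), followed by Myo16, Lppr5, Wdr20 and Apc2 (0.336), against a median of 1.04, while its own neighbour Zic1 was at rank 164. Gm5089 is annotated by RefSeq at chr14:122365679-122451146 on the minus strand, beyond the 3′ end of Zic5, and the nearest GENCODE model with that symbol ends 5680 bases from Zic5. Its normalized counts were 246.1, 102.9 and 299.9 at P1 and 449.9, 361.2 and 396.1 at P7. The P14 libraries had 278.5, 338.5 and 307.3, and those of P28 had 493.9, 537.8 and 568.0. As with Zic4, P1 replicate 2 was the lowest of the 12 and the P28 libraries lay above the rest, with a rise of 1.43 from P1 to P28 (adjusted p = 0.00457). The Zic4 to Gm5089 likeness came from a search over all genes, and Gm5089 overlaps Clybl, which lies on the opposite strand, so some of its reads may belong to that gene. Clybl had means of 92.3, 157.9, 193.9 and 225.7 normalized counts and was not called.

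The noncoding transcript between Zic5 and Zic2 had few counts. 2610035F20Rik starts 236 bases from the Zic2 start in GENCODE, on the opposite strand, and had means of 45.1, 73.4, 48.6 and 63.6 normalized counts at P1, P7, P14 and P28. Its libraries ranged from 13.8 to 101.6 at P14 alone, and it was not called in any comparison. Pcca, the nearest gene of the table beyond Zic2, which encodes a subunit of a mitochondrial carboxylase, had means from 235.8 at P1 to 428.2 at P28 and was not called either.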

How the data were processed

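GFP-sorted cerebellar cells were profiled by RNA sequencing, in 12 libraries, 3 per time point. The authors aligned reads to mm10 with STAR (2.5.0a), counted them on UCSC transcripts with GenomicAlignments and normalized them with DESeq2. The use of strand and the handling of shared reads are not given in the sources used here. The deposited values are normalized counts, a signal for which the authors divided a library's counts by its size factor. Undoing this gave whole reads for 100.0% of values (within 0.001 reads), 6399499 to 14733985 on genes per library. The number of reads sets the counting error alone. The spread between libraries of a time point exceeded that error (chi-square per degree of freedom at least 9.92). The name of every column carries P28, whatever the time point, so the time points rest on the labels. Of 24421 entries, 27 symbols had been turned into dates and 2 occurred more than once, of which the first was kept.

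limma (3.58.1, R 4.3.3) was fitted to log2(value + 1), with 1 mean for each age and a variance trend, over all 12 libraries and the 15462 genes that reached 10 in 3 or more libraries. Calls were made at a Benjamini-Hochberg adjusted p under 0.05. Fold changes on this scale understate those of low genes. edgeR (4.0.16, quasi-likelihood test, TMM) and DESeq2 (1.42.0) on the recovered reads, other scalings, pseudocounts and filters, the replicate number as a block and each library left out served as alternatives. Ratios between members were tested by exact permutation of a one-way F (two-sided), adjusted over 6 pairs. Tests were checked on simulated data. Lengths and exons came from GENCODE M21, promoters from RefSeq (GRCm38.p6). No 2 libraries of a time point were the same within sampling noise (chi-square per degree of freedom at least 9.92).

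The members and gene lists were chosen with earlier results of these data known. The genes named are the members, listed genes (at most 4 of a list by mean value, with others named because of their values or because they define a cell type, chosen after these were seen), the 5 most similar genes per member and the neighbours at the loci. Some single genes are not reported here.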

Additional observations from a re-analysis of the deposited data

How the results depend on the processing

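The calls of Zic1 for P7 versus P1, P14 versus P1 and P28 versus P1, and of Zic4 for P28 versus P1, were kept under all 22 alternatives with a test of their own. The count of members called for P28 versus P14 went from 1 to 0 with TMM scaling, library totals, a pseudocount of 0.1 or no filter on low values, and was 0 to 1 with 1 library left out. For P14 versus P7 it went from 0 to 1 with library totals. For P28 versus P7 it went from 2 to 1 with no filter, and was 0 to 2 with 1 library left out. For P7 versus P1 it was 1 to 2 with 1 library left out and went from 2 to 3 with the 2 time points fitted alone, where Zic5 passed (adjusted p = 0.0472), and for the ratios between members 0 to 4 of 6 pairs, with 1 library left out. Both P14 versus P1 and P28 versus P7 were added after seeing the data. The cause of these changes was not tested.

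Library totals turned the sign of Zic1 for P28 versus P14 (-0.074), Zic2 for P28 versus P1 (-0.047) and Zic5 for P28 versus P7 (-0.34). Zic5 for P28 versus P7 also turned without P7 replicate 2 or P28 replicate 3, and ranged from -0.040 to 0.46 with 1 library left out. None of these 5 values was called.

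Deviations of libraries with the same replicate number had r from -0.03 to 0.14 over 18 pairs, 1 of them over 0.1. Libraries with different numbers had r from -0.10 to 0.05 over 36 pairs, 0 of them over 0.1. The labels do not say whether the numbers pair the samples, and correlations this low cannot decide it. With the replicate block, 2, 0, 1 and 3 members were called for P7 versus P1, P14 versus P7, P28 versus P14 and P28 versus P1, the same counts as without it. With 3 libraries per time point, changes of Zic4 or Zic5 below about 1 on the log2 scale were often not distinguishable from the spread.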

Other observations

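Markers of several other cell types were detected in the sorted cells. The 8 oligodendrocyte lineage markers had mean sums of 9037 (P1), 14590 (P7), 159200 (P14) and 85840 (P28) normalized counts. Pdgfra, a receptor of the precursors, had the largest mean of the 8 at P1, and Mbp, which encodes a myelin protein, did at P14. From P7 to P14, 5 of them rose and 1 fell, and from P14 to P28, 0 rose and 5 fell. Over all genes, 20.9% and 14.4% were called at these steps. The 10 markers of GABAergic neurons and Purkinje cells had their highest mean sum at P7, with 5158 against 1352 at P1, 1057 at P14 and 800.8 at P28, although Pcp2, a Purkinje cell gene, had 8.50 at P7 and 126.0 at P14. Of the 10, 5 fell and 2 rose from P7 to P14, where 20.9% of all genes were called. The 4 unipolar brush cell markers had mean sums of 221.9, 497.6, 1006 and 422.3 at P1, P7, P14 and P28, and the 6 microglia and endothelium markers had 1406, 3543, 4227 and 2226.

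Choroid plexus markers were uneven between libraries of one age. The sum of the 6 markers was 110000, 63520 and 1296 normalized counts in the P14 libraries and 103600, 182000 and 17890 at P28, against 1187 to 2514 at P1. Ttr, a thyroid hormone carrier, had the largest mean of the 6 at P7, P14 and P28, whereas Otx2, a transcription factor, did at P1. From P1 to P7, 3 of the 6 rose, where 3.47% of all genes were called higher. P14 replicate 3, whose choroid plexus sum lay within the P1 range, had the highest P14 values of Zic1, Zic2 and Zic5. It also had the highest granule neuron sum of the 12 libraries (30730, against 15910 and 20360 in P14 replicates 1 and 2). The same held for its oligodendrocyte lineage sum (224400, against 113300 and 139700). The relation of these sums to the Zic values was not tested.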
